A study of Mus musculus with 6 samples.

Results

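In mouse epidermal cells, 377 of the 8525 p65 peaks of adult mice also lay under a peak of the aged/IgG control group but under no peak of the aged/anti-IL-17A/F group. These 377 peaks were chosen from the peak lists themselves. Each overlapped a control peak by at least 1 bp and had no overlap with any peak called after blockade. They made up 4.42% of the adult peaks and 9.72% of the 3879 adult peaks shared with control, and the other 3502 shared peaks were called in all 3 lists.

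The chromatin came from C57bl/6J mice, and 3 groups were compared by ChIP–seq for p65, an assay that sequences the DNA fragments pulled down with this protein. Adult mice received no treatment. Aged mice received a control IgG or blocking antibodies to IL-17A and IL-17F by intraperitoneal injection for 12 weeks, from 73 weeks of age. Adult and aged/IgG control mice therefore differed in both age and injections, which cannot be told apart here. Reads of 4 mice per group were merged and brought to an equal number before peaks were called, so that each group is 1 peak list with no replicate check and no test between groups.

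p65, encoded by Rela, is a subunit of NF-κB that carries the activation domain. In resting cells it is held in the cytoplasm by IκB proteins, and signals from the receptors of IL-17, IL-1 and TNF release it to the nucleus, where it binds short G- and C-rich sites. In the epidermis IL-17A and IL-17F act on keratinocytes through a receptor that recruits the adaptor Act1, the product of Traf3ip2, and the response includes chemokines, antimicrobial proteins and the inhibitors of NF-κB.

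A labelling point bears on all that follows. All 8525 peaks in the list labelled adult carry names that begin with the same prefix as the 6014 names in the list after blockade, whereas the 4169 control names have their own prefix. The positions of these 2 lists are not copies, since 0 of the adult peaks have the start and end of a peak called after blockade. The groups are used here as labelled. With the 2 lists exchanged, only 102 peaks were shared with control and missing from the other list, against 377 as labelled, and the NF-κB difference described further on turned from −7.52 to 4.02 percentage points (−5.18 to 13.2), so that the set and its motif content rest on those labels. The methods give no sorting of the epidermal cells. Adult peaks lay nearest to 4838 protein-coding genes in all, among them 11 of 16 keratinocyte keratin genes. Of genes of other cell types, these peaks lay nearest to 2 of 12 of T cells and 2 of 13 of Langerhans and myeloid cells. The counts were 0 of 8 for melanocytes and 2 of 12 for fibroblasts and endothelium. The share over all protein-coding genes was not computed, so these counts do not measure the purity of the cells.

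The sequences below are 60 bp of the reference at missing sites, from RefSeq's GRCm38 (mm10) assembly, plus strand, 5′ to 3′. They are shown because NF-κB matches were, with the lists as labelled, fewer at the missing sites than at peaks of like strength, by more than the counting error. Capitals mark the match to the 10-base NF-κB consensus nearest to the adult summit. The strongest sites of the named set that hold a match, and those of listed epidermal or signaling genes, read as follows.
Gm41177: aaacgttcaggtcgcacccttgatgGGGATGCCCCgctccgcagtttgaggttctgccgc
Adamts9: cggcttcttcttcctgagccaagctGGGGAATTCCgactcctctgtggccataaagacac
Ppp4r2: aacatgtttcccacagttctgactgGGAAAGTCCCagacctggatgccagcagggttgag
Gm33989: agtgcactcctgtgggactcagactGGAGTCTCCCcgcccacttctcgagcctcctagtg
Acsl5: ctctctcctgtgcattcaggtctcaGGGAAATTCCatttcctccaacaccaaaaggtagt
Sox9: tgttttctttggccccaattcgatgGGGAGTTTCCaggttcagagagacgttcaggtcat
Map3k14: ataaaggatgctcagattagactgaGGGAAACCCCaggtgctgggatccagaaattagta
Traf3ip2: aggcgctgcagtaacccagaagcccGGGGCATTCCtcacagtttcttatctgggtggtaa

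These windows lie at chr14:65150032-65150091 for Gm41177, chr6:93075935-93075994 for Adamts9, chr6:100781808-100781867 for Ppp4r2, chr7:39544247-39544306 for Gm33989, chr19:55271469-55271528 for Acsl5, chr11:112788432-112788491 for Sox9, chr11:103276374-103276433 for Map3k14 and chr10:39612995-39613054 for Traf3ip2. The next 3 windows are centred on the adult summits of the strongest missing sites with no match within 100 bp of the summit, which was the commoner case in the set.
Skint1: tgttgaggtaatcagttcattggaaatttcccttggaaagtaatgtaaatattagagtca
Dapp1: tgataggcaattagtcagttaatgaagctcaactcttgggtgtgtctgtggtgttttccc
Psg25: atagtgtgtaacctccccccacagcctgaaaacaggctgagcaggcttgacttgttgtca

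The last 3 lie at chr4:112006093-112006152 for Skint1, chr3:138003286-138003345 for Dapp1 and chr7:18533602-18533661 for Psg25. The Skint1 window holds the run ggaaatttccc, which is 1 base longer between its outer G and C bases than the consensus and so was not counted as a match. None of the 3 holds the AP-1 letters TGANTCA.

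The missing sites were mostly weak peaks. Their fold enrichment, the height of a peak over its local background as given by the peak caller, had a median of 3.37 in adult, with a lowest value of 2.0 and a highest of 6.66. The control peaks over the same places had a median fold enrichment of 3.09, from 2.15 to 5.73. Among the peaks called in all 3 lists the medians were 5.18 in adult and 4.10 in control. Ranked within its own list, the median missing site stood at percentile 41.5 in adult and at percentile 22.0 in control, and 18 of the 377 were above the median of both lists. The −log10 q was at least 10 in both lists for 93 of them. These values took part in choosing the set, through the calling of the peaks, and describe it without a test.

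**Figure D1:**
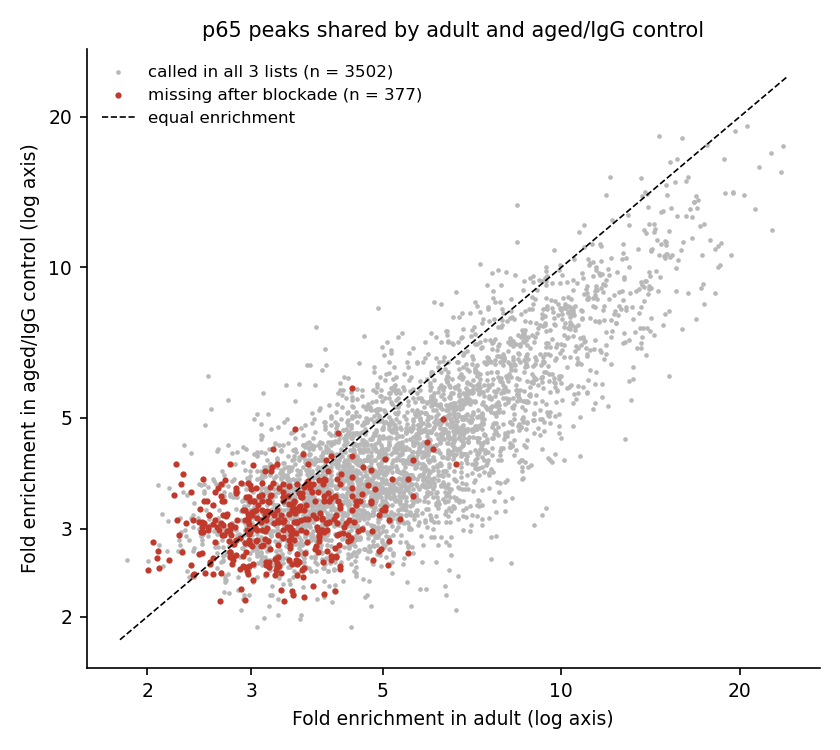
Each point is an adult p65 peak that overlapped a control peak, with its fold enrichment in adult on the horizontal axis and that of the control peak with the largest overlap on the vertical axis, both on log axes; red points (n = 377) have no overlapping peak after blockade and grey points (n = 3502) do. The red points lie at the weak end of both axes, at or below 6.66 in adult and 5.73 in control.

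Absence after blockade followed strength closely. Of the shared peaks in the weakest decile of the adult list, 41.2% were missing after blockade (47 of 114, 95% Wilson interval 32.6 to 50.4). In the fifth decile the share was 21.2% (53 of 250), in the eighth it was 4.11% (26 of 632), and in the strongest it was 0 of 852, with an upper Wilson limit of 0.449%. The weaker 7 deciles held 343 of the 377 missing sites. The opposite case, adult peaks shared with aged/anti-IL-17A/F but missing from control, was commoner in every decile but the strongest: 70.7% in the weakest and 5.73% in the ninth, and 31.9% over all (1644 of 5146). The control list was the shortest of the 3, and the intervals cover counting error only, not the spread between mice.

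**Figure D2:**
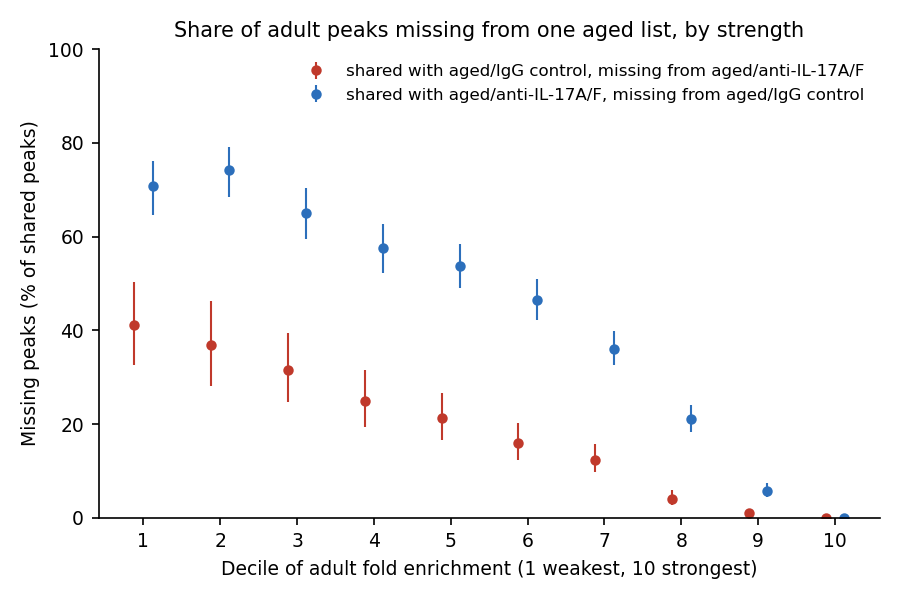
Share of shared adult peaks that one aged list lacks (%, vertical axis) in deciles of adult fold enrichment (horizontal axis, 1 weakest), with 95% Wilson intervals as bars; red counts peaks shared with control and missing after blockade, blue the peaks shared with aged/anti-IL-17A/F and missing from control. The red points decline from 41.2% and the blue ones from 74.1% in the second decile to 0 of 852 in the strongest, and the blue points are higher in the other deciles.

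The rule left no overlap with a peak called after blockade, and the gaps varied widely. The gap from a missing site to the nearest peak called after blockade had a median of 36814 bp, and 102 of the 377 gaps were over 100000 bp. There were 16 gaps within 500 bp, 29 within 1000 bp and 103 within 10000 bp. The closest were at Hmga1, with 59 bp between the peaks, Ube2d3, with 108 bp, and Ksr1, with 127 bp, and the adult fold enrichments there were 3.37, 2.69 and 3.97. Just outside the set, an adult peak at Gpr161 shared 34 bp with a peak called after blockade, one at Azin1 shared 36 bp and one at Csrnp1 shared 64 bp, and these had adult fold enrichments of 2.09, 3.52 and 3.11.

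Adult and control peaks at the missing sites shared a median of 321 bp, and their summits were a median of 46 bp apart. Of the 377 pairs of summits, 196 were within 50 bp (52.0%), against 53.2% for peaks called in all 3 lists that were weighted to the same adult deciles, and 58.7% when weighted to the same control deciles. Another adult peak lay within 10000 bp of 37.4% of the missing sites and of 38.9% of the matched peaks.

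The strongest missing site by adult fold enrichment lay 22211 bp upstream of Gm41177, a long noncoding RNA gene, at chr14:65149870-65150342. Its fold enrichment was 6.66 in adult and 4.05 in control, and the nearest peak after blockade was 263949 bp away. The site of Skint1 stood next. Skint1 encodes an immunoglobulin-family protein of keratinocytes and thymic epithelium that is needed for the epidermal γδ T cells. This peak, at chr4:112005895-112006318, lay 162 bp upstream of the start, had fold enrichments of 6.31 in adult and 4.98 in control with summits 7 bp apart, and was the second strongest missing site by either value. No peak after blockade was assigned to the gene. Skint1 and Psg25 belong to families of near-identical copies in tandem, and the treatment of reads that map to several copies is not given in the sources used here, so that both positions are uncertain.

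A site 21777 bp upstream of Dapp1, a phosphoinositide-binding signaling adaptor, had 6.07 in adult and 4.34 in control. The site nearest to Adamts9, a secreted protease of the extracellular matrix, had 5.93 and 4.48. It lay 132529 bp from that gene's start and within an intron of 9530026P05Rik, with no peak after blockade for 685983 bp. At Ppp4r2, a regulatory subunit of protein phosphatase 4, the values were 5.62 and 4.12, and the site lay in an intron of its neighbour Gxylt2. These 3 sites were above the control median as well as the adult one.

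Psg25, of the pregnancy-specific glycoproteins, had 5.62 in adult and 3.48 in control. The predicted gene Gm33989 had the widest gap of the 10 strongest, with 5.51 in adult and 2.69 in control at 72 bp from its start. Mtss1, a membrane-bending scaffold of the actin cytoskeleton, had 5.51 and 3.77 in an intron 59549 bp from the start. At Srebf1, a transcription factor of lipid synthesis, the missing site lay in a coding exon 85 bp from a start and had 5.35 in adult and 3.14 in control. A peak of 3.35 after blockade remained at another start of the same gene, 9616 bp away. Prdm10, a zinc-finger transcription factor, had 5.18 and 3.78 in an intron. The adult value was above that of control at all 10, which were picked for a high adult value.

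Ranked by control instead, the highest value was 5.73 at Wdfy3, a scaffold protein of selective autophagy, where the adult value was 4.43. This intronic site at chr5:101959469-101959807 was 194387 bp from the nearest peak after blockade. Itpr2, a calcium channel of the endoplasmic reticulum, had 4.76 in control and 3.56 in adult. Ptk2b, a calcium-responsive tyrosine kinase, had 4.66 and 4.20. Thg1l, an enzyme that adds a guanosine to histidine tRNA, had 4.34 and 3.26, 133 bp from its start. Eva1c had 4.23 and 3.67, Acsl5, an acyl-CoA synthetase, had 4.19 and 4.43, and Sgip1, an endocytic adaptor, had 4.19 and 4.09. Skint1, Adamts9 and Dapp1 complete the 10 highest by control. Across the set the adult value was above the control value at 243 of the 377 sites (64.5%), and at 2801 of the 3502 peaks called in all 3 lists (80.0%).

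**Figure D3:**
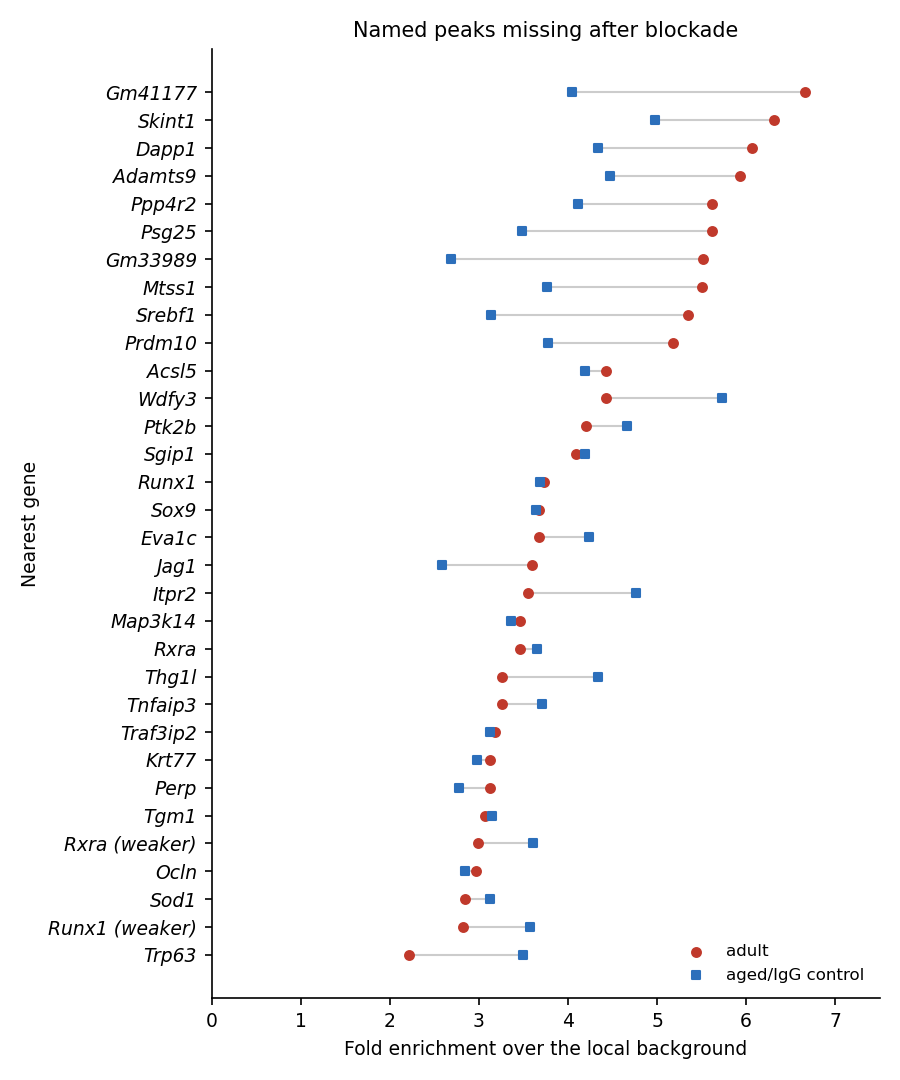
Fold enrichment over the local background (horizontal axis) of 32 named missing sites in adult (red circles) and control (blue squares), ordered by the adult value and named by the nearest gene; a second site of a gene is marked as weaker. Adult is above control at 19 of the 32, among them the 10 picked for the highest adult fold enrichment.

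Sites were named by the gene whose transcription start was closest. The nearest gene was protein-coding for 322 sites and of another kind for 55. The 322 sites fell at 309 genes, which is 12.1% of the 2556 genes with a peak shared by adult and control. At 174 genes no peak after blockade was left, 6.81% of the same 2556. The other 135 genes had another peak after blockade, and 109 genes also had a peak called in all 3 lists. Over all 2580 genes with both an adult and a control peak, shared or not, 192 had no peak after blockade (7.44%), against 174 of the 309 genes with a missing site (56.3%), which the choice of the sites itself favours.

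Among 21 gene lists, 17 of NF-κB signaling, inflammation and epidermal biology and 4 of other cell types of the skin, 170 listed genes had a peak shared by adult and control, and 14 of these had a missing site. Of the 281 shared peaks at listed genes 16 were missing, or 5.69%, beside the 9.72% of all shared peaks. The shared peaks of listed genes were not matched for strength, and no test was made.

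No missing site was found at the listed IL-17 response genes of keratinocytes (0 of 6 shared peaks), chemokines and cytokines (0 of 15), the TNF superfamily and death receptors (0 of 5), Toll-like and IL-1 receptors (0 of 9), apoptosis and survival (0 of 11), AP-1 factors (0 of 28) or MHC class I and antigen processing (0 of 11). At the share of all shared peaks, a list of 28 would hold fewer than 3 and a list of 5 or 6 fewer than 1, before strength is taken into account. The lists of T cell, myeloid, melanocyte, and fibroblast and endothelial genes together had 8 shared peaks and no missing site.

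The receptor pathway of IL-17 itself held 1 missing site, at Traf3ip2. The adult peak, at chr10:39612891-39613401, lay in the 5′ UTR 212 bp from the start, with fold enrichments of 3.18 in adult and 3.13 in control. No peak after blockade was assigned to the gene, and the nearest was 285537 bp away. The adult and control peaks shared 77 bp, however, and their summits were 383 bp apart, so the adult summit was outside the control peak. The site had both an NF-κB and an AP-1 match near the adult summit. It was 1 of 7 shared peaks in the list of IL-17 receptors and adaptors (14.3%, beside 9.72% of all shared peaks).

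Krt77, Ocln and Sox9 were the other listed genes with a missing site and no peak after blockade. At Krt77, a keratin of suprabasal cells, the peak 126 bp upstream of the start had 3.13 in adult and 2.98 in control. At Ocln, which encodes the tight junction protein occludin, an intronic peak 987 bp from the start had 2.97 and 2.84, with summits 6 bp apart. At Sox9, a transcription factor of hair follicle stem cells, a peak 6244 bp downstream of the start had 3.67 and 3.64 with an NF-κB match. The adult and control values at each of these 3 genes were close to each other, and of the 6 values only the adult one at Sox9 was above the median of its list. Krt77 held 1 of the 4 shared peaks of the keratin list (25%, beside 9.72% of all shared peaks, not matched for strength). Krt2, a keratin outside that list, also had a missing site and no peak after blockade. Its site lay 8407 bp upstream, with 3.53 in adult and 2.21 in control.

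Tnfaip3, Map3k14 and Tank each had a missing site and another peak called after blockade. Tnfaip3, which encodes the ubiquitin-editing inhibitor A20, had a missing site 37585 bp downstream of its start with 3.26 in adult and 3.71 in control, and a peak of 21.6 after blockade at 61 bp from the start. It was the only missing site among 31 shared peaks at the NF-κB subunits and inhibitors (3.23%, beside 9.72% of all shared peaks, not matched for strength). Map3k14, the NF-κB-inducing kinase upstream of the alternative pathway, had a missing site 8938 bp upstream with 3.47 and 3.36, and a weaker peak of 3.15 after blockade near its start. It was 1 of 12 shared peaks in the list of upstream NF-κB signaling (8.33%). Tank, a TRAF-binding regulator that is in none of the lists, had 2 missing sites of 3.81 and 3.47 in adult and 3.20 and 3.21 in control, and a peak of 7.08 after blockade 206 bp from the start.

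The epidermal transcription factors had 6 missing sites of 41 shared peaks (14.6%, beside 9.72% of all shared peaks), at 4 of 19 genes (21.1%, beside 12.1% of all genes with a shared peak). Besides Sox9 these were Runx1, a regulator of hair follicle stem cells, Rxra, the retinoid X receptor, and Trp63, the master regulator of stratified epithelia. Runx1 had a missing site 54 bp from a start with 2.82 in adult and 3.57 in control, and another 194560 bp upstream with 3.73 and 3.69. Rxra had sites of 3.47 and 2.99 in adult and 3.66 and 3.61 in control. The site nearest to Trp63, 143468 bp from its start, had 2.22 in adult and 3.50 in control, while 7 peaks after blockade were assigned to the gene. At 4 of these 6 sites the control value was above the adult one, and Sox9 and the distal site of Runx1 were the exceptions.

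Tgm1, Perp, Jag1 and Sod1 had a missing site each and another peak after blockade. Tgm1, which cross-links the cornified envelope, had 3.07 in adult and 3.15 in control at 706 bp from the start. Perp, a desmosomal protein, had 3.12 and 2.78. Jag1, a Notch ligand, had 3.59 and 2.59 in an intron. Sod1, superoxide dismutase 1, had 2.84 and 3.13 at 33045 bp from its start. The list of Tgm1, cornified envelope and barrier, had 2 missing sites of 15 shared peaks (13.3%), with Ocln the other. Cell adhesion had 1 of 22 (4.55%), and Notch, EGF, Hedgehog and Wnt signaling 1 of 28 (3.57%). The oxidative stress response had 1 of 12 (8.33%). These shares stand beside 9.72% of all shared peaks and were not matched for strength.

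A gene had at most 2 missing sites, and 13 genes had 2. Among them were Eva1c, Golph3, Iffo2, Optc, Ppm1a, Ppp4r2, Runx1, Rxra, Shb, Spsb2, Tank and Zfp36l1. Zfp36l1, a protein that promotes mRNA decay, had sites of 3.004 and 2.93 in adult and 2.77 and 2.52 in control beside a peak of 10.6 after blockade. Both adult peaks at Spsb2 overlapped the same control peak, so they are 1 site in control. The 377 adult peaks overlapped 375 control peaks in all.

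Location was compared with the 3502 peaks called in all 3 lists after these were weighted to the same deciles of adult fold enrichment as the missing sites. Promoters, within 1000 bp of a start, held 147 of the 377 (39.0%, interval 34.2 to 44.0), and 36.7% of the matched peaks. The difference was 2.24 percentage points with an interval of −3.45 to 7.93. Sites 1 to 10 kb from a start made up 22.3% against 21.4%, those 10 to 50 kb away 26.5% against 29.2%, and those beyond 50 kb 12.2% against 12.6%, none with an interval of the difference that excluded 0. The promoter comparison depended on how peaks were counted, since the difference was 8.93 points (3.06 to 14.8) with lists of equal length and 8.004 points (2.47 to 13.5) with an overlap of at least 50% of both peaks, and −9.69 points (−18.9 to −0.478) with the adult list and the one after blockade exchanged.

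Coding exons held the middle of 20 missing sites (5.31%, interval 3.46 to 8.05) and of 2.77% of the matched peaks, a difference of 2.54 points with an interval of 0.0642 to 5.01. Against adult peaks shared with aged/anti-IL-17A/F alone, weighted in the same way, the difference was 1.51 points and its interval, −0.937 to 3.96, held 0. Of the 20, 18 lay within 1000 bp of a start, as at Srebf1, Thg1l and Zfp36l1. Introns held 33.7% against 37.4% of the peaks called in all 3 lists, and against 39.5% of the peaks shared with aged/anti-IL-17A/F alone, where the difference of −5.80 points had an interval of −11.1 to −0.464. Against the peaks called in all 3 lists, 5′ UTRs held 12.2% against 12.7%, and the intergenic class made up 46.9% against 44.4%. The GC content of the 201 bp around the summit had a mean of 56.5% ± 9.33 (SD, n = 377 peaks) and was 56.6% in the matched peaks. The adult peaks of the set were narrower, with a mean width of 462 bp against 521 bp.

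With the lists as labelled, NF-κB matches were fewer at the missing sites than at peaks of like adult strength, a direction that reversed when the adult list was exchanged with the one after blockade. The consensus was found on either strand within 100 bp of the adult summit in 70 of the 377 (18.6%, interval 15.0 to 22.8), against 26.1% of the matched peaks called in all 3 lists (23.7 to 28.4). The difference was −7.52 points with an interval of −12.1 to −2.94. Without weighting, 42.5% of the peaks called in all 3 lists held a match. Of all adult peaks 28.5% did, and of the adult peaks in no other list 15.1%. In windows of the same length 2000 bp to either side of the missing sites the share was 1.72%.

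The shortfall was also present against adult peaks shared with aged/anti-IL-17A/F alone. These had 24.8% when weighted to the same strength, a difference of −6.20 points (−10.6 to −1.78). In deciles 2 to 8 of adult strength the share among missing sites was below that among peaks called in all 3 lists, as in the fourth, with 5 of 49 against 35 of 147, and the seventh, with 13 of 58 against 148 of 410. In the weakest decile it was above, with 8 of 47 against 7 of 67, and in the ninth 4 of 8 against 383 of 789. Single deciles have wide intervals that mostly overlap.

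**Figure D4:**
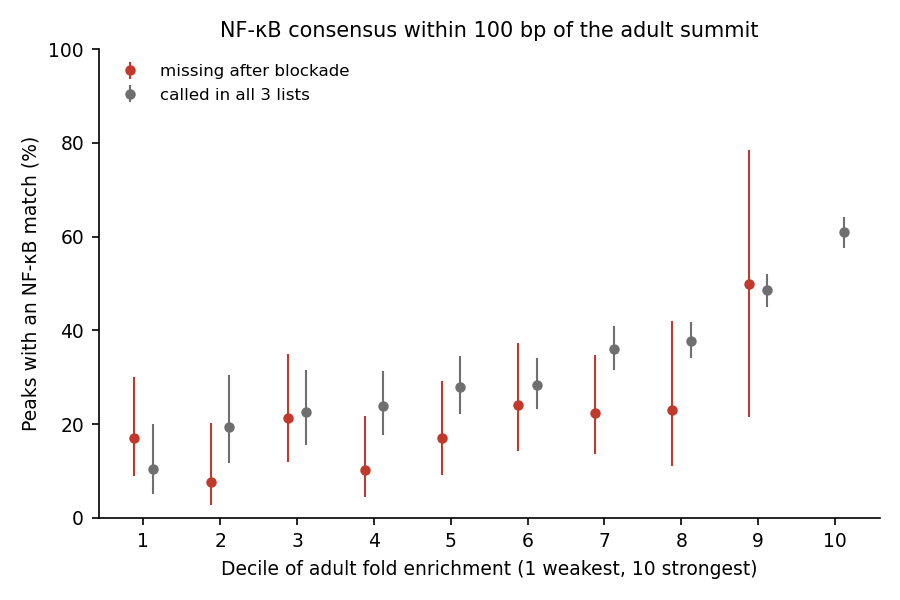
Share of peaks with an NF-κB consensus match within 100 bp of the adult summit (%, vertical axis) in deciles of adult fold enrichment (horizontal axis, 1 weakest), with 95% Wilson intervals as bars, for missing sites (red) and peaks called in all 3 lists (grey). The red points lie below the grey ones in deciles 2 to 8, as in the seventh with 22.4% against 36.1%, with the lists as labelled (the weighted difference reversed with the adult list and the one after blockade exchanged), and no red point exists in the strongest decile.

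Missing sites had control peaks that were weaker than those of peaks matched on the adult value, with a mean of 3.14 against 3.43. When both values were matched, in 5 classes each, the share of the reference peaks with a match was 25.3% and the difference −6.72 points (−11.4 to −2.08). Matched on the control value alone it was −12.4 points (−17.0 to −7.90). Matched on adult deciles, it was −11.9 points (−17.3 to −6.55) with lists of equal length and −15.1 points (−21.6 to −8.62) at a −log10 q of at least 10 in every list. Promoter and distal sites both showed lower shares. Of the 147 promoter sites 16 had a match (10.9%), against 19.0% of matched promoter peaks, and of the 230 other sites 54 did (23.5%), against 30.4%. Where a match was present, it lay a median of 24 bp from the summit, and within 50 bp at 53 of 70 sites (75.7%, 64.5 to 84.2). Without weighting for strength, 83.7% of matches were that near among peaks called in all 3 lists (81.8 to 85.5), 78.0% among adult peaks shared with aged/anti-IL-17A/F alone (73.8 to 81.7) and 72.1% among adult peaks in no other list (67.8 to 76.1).

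The other patterns did not separate the missing sites from matched peaks. AP-1 letters, TGANTCA, were found in 49 (13.0%) against 12.4%, with an interval of the difference of −3.27 to 4.49. They were in 13.2% of all adult peaks and in 6.50% of the windows beside the missing sites. The GC box GGGCGG was found in 27.1% against 25.8%, the ETS letters CCGGAAG in 5.04% against 4.89%, the NF-Y letters CCAAT in 21.0% against 20.6% and the TEAD letters GGAATG in 14.9% against 14.3%. The p53 family letters ACATGT was in 4.77% against 3.93%, the GRHL letters AACCNGNTT in 3.98% against 3.28%, and the RUNX letters TGTGGT in 8.75% against 10.8%. All were searched on both strands, and a run can count for more than one pattern. The wider NF-κB letters GGGNNTTNC, which take in many of the consensus matches, gave 27.1% against 36.2%. In all, 33 shares of location, composition and motif were compared in this way, and for 5 the interval of the difference excluded 0. These were coding exons, both NF-κB patterns, the consensus in the whole peak, and the absence of both NF-κB and AP-1 matches. The intervals are not adjusted for the number of shares, and 4 of the 5 count the same NF-κB matches.

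**Figure D5:**
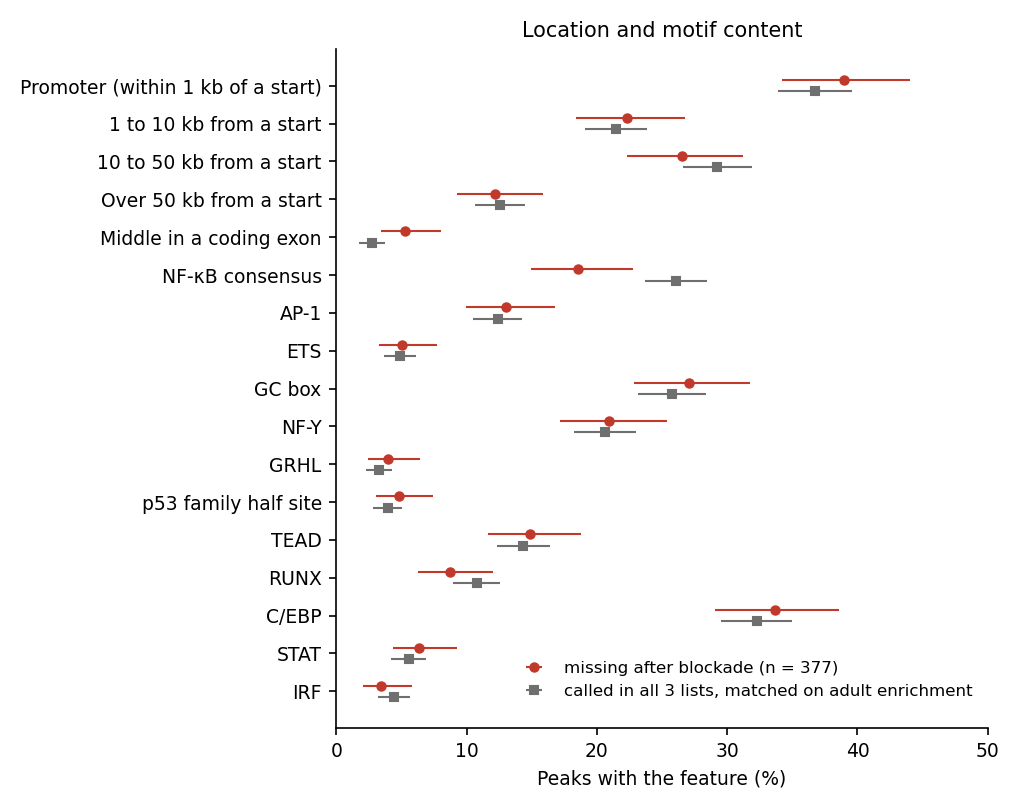
Share of peaks with each feature (%, horizontal axis) among the 377 missing sites (red circles, 95% Wilson intervals) and among the peaks called in all 3 lists weighted to the same deciles of adult fold enrichment (grey squares, 95% normal intervals). With the lists as labelled, the NF-κB consensus is lower at the missing sites, with 18.6% against 26.1%, a direction that reversed when the adult list and the one after blockade were exchanged, coding exons are higher, with 5.31% against 2.77%, and the intervals of the 2 sets overlap for every feature drawn but the NF-κB consensus.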

How the data were processed

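p65 ChIP–seq peak lists of mouse epidermal cells were analysed, 1 for each of the adult, the aged/IgG control and the aged/anti-IL-17A/F group. The input libraries were not analysed here. The authors trimmed reads (Trimmomatic 0.36), aligned them to mm10, merged the 4 mice of a group, removed duplicates, downsampled each pool to an equal number and ran MACS2 with a limit of 0.01 on the q-value and fragments extended to 300 bp. Use of the inputs in the calling is not given in the sources used here. The deposited lists give for each peak a score, a fold enrichment (a ratio over the local background, column 7), a summit, and a p-value and a q-value as −log10. Merging removes the variation between mice, and a peak near the threshold can enter one list and miss another with little difference in signal. The read depth behind a peak is unknown, so that the numbers of peaks set the precision, and all intervals cover counting error only.

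Adult peaks were counted as shared at an overlap of 1 bp. The comparison group was the adult peaks called in all 3 lists, weighted to the deciles of adult column 7 of the missing sites. Shares carry 95% Wilson intervals, and weighted shares and differences 95% normal intervals. Each peak was assigned from its middle to the nearest start among curated RefSeq transcripts (GRCm38, the same build as mm10), and promoters were peaks within 1000 bp. Motifs were searched on both strands within 100 bp of the adult summit (201 bp). Fold enrichments of adult and control are set side by side as deposited, and a difference between lists in the efficiency of the immunoprecipitation was not tested.

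The members and lists were chosen with earlier results of these data known. The named sites are the 10 of highest adult and the 10 of highest control column 7, those at listed genes, genes with at least 2 missing sites, and the 3 sites nearest to either side of the overlap limit. Some sites that the rule names are not reported here. Sites on chromosome 18 were left out of the printed sequences and the plot of named sites. Of the 472 listed symbols 466 were found in the annotation. Alternatives were stricter q-values, stricter and looser overlap, lists cut to the same length, an exchange of lists, other bins, promoter limits and motif windows. The match on both columns and the recomputed differences were added after seeing the data. Motif and weighting steps were tested on simulated data. Overlap calls were compared with those of bedtools on shifted copies of adult peaks. Nearest starts were compared with a full search for a sample of adult peaks. Computations used Python 3.11.15, numpy 2.4.6, pandas 2.3.3 and scipy 1.17.1, with bedtools 2.31.1 and samtools 1.23.1, and figures matplotlib 3.10.9.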

Additional observations from a re-analysis of the deposited data

How the results depend on the processing

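The lists are 1 pool per condition, so a difference in calling and a difference in binding cannot be told apart, and single mice cannot be compared. No paired analysis was possible because each group is 1 merged list with no replicates. The NF-κB difference stayed below 0, with an interval below 0, in 18 of 19 alternatives. The exception was the exchange of the adult list with the one after blockade, where it was 4.02 points (−5.18 to 13.2), and where the number of missing peaks was 102, their share 2.83%, the promoter share 29.4%, the promoter difference −9.69 points and the NF-κB share 30.4%.

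At a −log10 q of at least 10 in every list, 204 peaks (7.31% of shared peaks) were missing, with 31.4% at promoters and an NF-κB difference of −15.1 points. With at least 5 in adult and control only, the missing share was 8.40%. With an overlap of at least 50% of both peaks it was 10.99%, the promoter difference 8.004 points and the NF-κB share 22.9%. With equal numbers of peaks (4169 in each list) these were 10.7%, 8.93 points and 24.3%, and the NF-κB difference −11.9 points. The promoter difference excluded 0 in 3 of 14 alternatives, these 2 and the exchange, and its direction was not the same in them. Matched on control deciles, the NF-κB share of peaks called in all 3 lists was 31.0% and the difference −12.4 points, and matched on both values their promoter share was 40.2%. The cause of these shifts was not tested.

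By construction, wider windows found more matches: NF-κB 13.0%, 23.6% and 24.7%, and AP-1 6.63%, 19.1% and 19.9%, within 50 bp, within 200 bp and in the whole peak. GGGNNTTNC gave 27.1%. With peaks within 10000 bp of a start only, the genes numbered 199. The other 79 of 107 recomputed values stayed within 1.5 times the count or within the interval reported.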
